A study of Homo sapiens with 60 samples.

Results

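The 10 genes described here are ID1, ID2, ID3 and ID4, which encode the inhibitor of DNA binding proteins, the helix-loop-helix gene ATOH8, the SMAD genes SMAD6, SMAD7 and SMAD9, and BAMBI and BMPER, which act on bone morphogenetic protein (BMP) signals outside the nucleus. They were chosen by name, because ID gene levels were lower at higher doses of the Zizyphi and Longan extracts in these libraries. The choice therefore used the Zizyphi and Longan values, which are given below as a description with no test. All 10 are among 60675 genes in the count table and among the 17368 genes that passed the filter on low counts.

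The cells were A549, an established human lung adenocarcinoma line, and every group was treated for 24 h. The treated groups were Wortmannin (10 µM), an inhibitor of phosphoinositide 3-kinases, and water extracts of 6 herbal medicines at 20, 100 and 500 µg/mL. The herbs were Zizyphi Semen (Zizyphi below), Longan Arillus (Longan), Polygalae Radix (Polygalae), Aucklandiae Radix (Aucklandiae), Schisandrae Fructus (Schisandrae) and Liriopis seu Ophiopogonis Tuber (Liriopis). The control was Vehicle, which the sample labels give as 0.1% DMSO and the design text of the series as 2% DMSO. No DMSO percentage is given for the Wortmannin or extract groups. In comparisons with Vehicle a difference in solvent therefore cannot be told apart from the treatment. Each of the 20 groups had 3 libraries, 60 in all. A549 is 1 cell line, and nothing in the labels says that the 3 libraries of a group came from separate cultures, so the p-values below measure only the spread between these libraries. The design text also says that toxic extracts were used at lower concentrations, whereas every label states 20, 100 or 500 µg/mL; doses are given as labelled.

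BMPs are secreted ligands of the TGF-beta superfamily that bind type I and type II receptor kinases, which phosphorylate SMAD1, SMAD5 and SMAD9; these enter the nucleus with SMAD4. The ID genes are widely used readouts of this pathway, and ID proteins bind E proteins and keep them from DNA. SMAD6 and SMAD7 are inhibitory SMADs that the pathway induces and that dampen it, BAMBI is a pseudoreceptor without a kinase domain, and BMPER is a secreted protein that binds BMPs.

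The libraries held 17716749 to 30639301 counts, with a median of 24644726, and log2 values of replicate libraries correlated at 0.985 to 0.993. Of 8 epithelial and A549 marker genes, all 8 passed the filter, with KRT8 at a mean of 3631 CPM (counts scaled to library size) and ALDH1A1 at 6453 CPM, whereas EPCAM averaged only 4.87 CPM. None of 4 endothelial markers passed, and their sum was 0.0452 to 0.397 CPM in every library. Polygalae 20 replicate 1 stood farthest from its own group (SD of log2 deviations over genes 0.311, against a median library of 0.226), and the Polygalae 20 values, the Polygalae slopes and the correlations below are given with and without it. The library names put each of 3 pairs of extracts (Zizyphi with Longan, Polygalae with Aucklandiae, Schisandrae with Liriopis) in separate numbered sets. Vehicle names begin with A1 and Wortmannin names with 1, and nothing states whether these groups share a set. In each comparison of an extract with Vehicle the set and the treatment cannot be told apart, and for Wortmannin this is not known. All comparisons with Vehicle share the same 3 Vehicle libraries. Dose slopes within 1 extract, and comparisons of 2 extracts of the same set, do not cross sets.

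The proximal promoters of the ID genes and ATOH8, the 5 helix-loop-helix genes, are shown. These genes had their lowest group mean with Zizyphi 500, as did SMAD6, whose promoter is not shown. Each line gives the 250 bases before the RefSeq transcription start on the gene's own strand (GRCh38.p14). Capitals mark matches, on either strand, to 5 motifs: CAGAC, the core of SMAD binding elements; GGCGCC, a GC-rich element of BMP-responsive SMAD complexes; CAGCTG, an E-box; CCAAT; and TATAAA. The windows are ID1 at chr20:31605039-31605288 (+), ID2 at chr2:8681806-8682055 (+), ID3 at chr1:23559502-23559751 (−), ID4 at chr6:19837120-19837369 (+) and ATOH8 at chr2:85753741-85753990 (+).
ID1: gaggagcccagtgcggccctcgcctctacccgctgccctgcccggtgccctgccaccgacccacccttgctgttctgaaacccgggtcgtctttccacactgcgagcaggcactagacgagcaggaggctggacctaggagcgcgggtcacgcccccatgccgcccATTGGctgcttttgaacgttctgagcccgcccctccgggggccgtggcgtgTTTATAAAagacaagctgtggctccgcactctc
ID2: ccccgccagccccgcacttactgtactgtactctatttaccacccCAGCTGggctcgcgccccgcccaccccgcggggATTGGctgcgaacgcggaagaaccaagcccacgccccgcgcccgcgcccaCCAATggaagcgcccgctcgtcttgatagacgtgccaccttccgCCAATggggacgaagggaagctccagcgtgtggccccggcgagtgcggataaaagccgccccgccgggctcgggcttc
ID3: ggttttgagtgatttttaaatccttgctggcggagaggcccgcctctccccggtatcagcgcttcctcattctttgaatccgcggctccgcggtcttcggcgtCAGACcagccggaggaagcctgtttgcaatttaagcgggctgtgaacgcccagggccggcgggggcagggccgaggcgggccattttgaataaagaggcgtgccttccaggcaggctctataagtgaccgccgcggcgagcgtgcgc
ID4: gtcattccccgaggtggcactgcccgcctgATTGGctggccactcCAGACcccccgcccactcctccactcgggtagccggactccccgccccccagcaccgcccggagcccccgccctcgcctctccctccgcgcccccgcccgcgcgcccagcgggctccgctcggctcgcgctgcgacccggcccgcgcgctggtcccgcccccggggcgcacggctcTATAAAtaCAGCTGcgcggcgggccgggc
ATOH8: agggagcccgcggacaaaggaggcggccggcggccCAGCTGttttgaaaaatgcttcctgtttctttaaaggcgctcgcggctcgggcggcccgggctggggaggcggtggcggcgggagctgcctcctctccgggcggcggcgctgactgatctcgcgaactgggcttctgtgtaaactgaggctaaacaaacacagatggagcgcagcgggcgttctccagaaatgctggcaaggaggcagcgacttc

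These 5 windows shared a high GC content, from 62.0% in ID3 to 78.8% in ID4, against a median of 58% over 35116 human promoters of the same length. No motif was common to all 5. GGCGCC, present in 16.4% of all promoters, was in none of the 5, whereas the BAMBI window held 3 matches and the BMPER windows 1 and 2. CAGAC, present in 38% of all promoters, was in ID3 and ID4 once each. The E-box CAGCTG, present in 14%, was in ID2, ID4 and ATOH8. CCAAT, present in 32%, was in ID1 once, in ID2 3 times and in ID4 once. TATAAA, present in 10.7%, was in ID1 as 2 overlapping matches on opposite strands and in ID4 once. A match describes letters in the sequence and says nothing of binding, and a motif not found is only absent from this window.

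Per kilobase of exon, the mean level over the 60 libraries was highest for ID1 (147 RPKM, the CPM divided by exonic kilobases) and ID3 (89.7 RPKM), then ID2 (50.5 RPKM). SMAD6 (9.54 RPKM), BAMBI (8.64 RPKM), ID4 (5.204 RPKM), SMAD7 (3.83 RPKM) and ATOH8 (2.84 RPKM) were intermediate. BMPER (0.794 RPKM) and SMAD9 (0.316 RPKM) were lowest. SMAD9 had only 16 to 78 counts per library, so its values are the least precise, with a median within-group coefficient of variation of 10.9%, against 3.71% for ID3.

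The members lie on separate chromosomes except ID2 and ATOH8, and all are annotated as protein-coding (GRCh38, GENCODE 29). ID1 (ENSG00000125968) is on chromosome 20, 31605283 to 31606515, and ID2 (ENSG00000115738) on chromosome 2, 8678845 to 8684453. ID3 (ENSG00000117318) is on chromosome 1, 23557918 to 23559794, and ID4 (ENSG00000172201) on chromosome 6, 19837386 to 19840684. ATOH8 (ENSG00000168874) is on chromosome 2, 85751344 to 85788066, SMAD6 (ENSG00000137834) on chromosome 15, 66702228 to 66782848, and SMAD7 (ENSG00000101665) on chromosome 18, 48919853 to 48952052. SMAD9 (ENSG00000120693) is on chromosome 13, 36844831 to 36920765, BAMBI (ENSG00000095739) on chromosome 10, 28677342 to 28682939, and BMPER (ENSG00000164619) on chromosome 7, 33904308 to 34156356.

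In the libraries that led to the choice of these genes, Zizyphi 500 had the lowest group mean of all 20 groups for ID1, ID2, ID3, ID4, ATOH8 and SMAD6. ATOH8, which encodes a basic helix-loop-helix factor, had 10.0, 9.54 and 11.01 CPM with Zizyphi 500 and 12.3, 13.3 and 12.8 CPM with Longan 500, against 16.4, 17.9 and 20.1 CPM in Vehicle. All 6 values of these extracts at 500 µg/mL lay below the lowest Vehicle value, with Zizyphi below Longan. ID4 had 7.97, 6.41 and 6.84 CPM with Zizyphi 500 and 8.82, 9.68 and 9.59 CPM with Longan 500, against 10.9, 13.3 and 12.7 CPM in Vehicle, again with no overlap. The log2 change over Vehicle was −0.83 ± 0.082 (SE) for ATOH8 and −0.80 ± 0.089 for ID4 with Zizyphi 500, and −0.51 ± 0.080 and −0.40 ± 0.086 with Longan 500. These are bulk RNA values, in which fewer cells of a kind and less RNA per cell cannot be told apart.

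Among the more abundant ID genes, ID2 had 75.4, 81.0 and 74.0 CPM with Zizyphi 500 and 96.3, 92.9 and 84.0 CPM with Longan 500, against 120.9, 115.3 and 115.0 CPM in Vehicle. ID3 had 120.3, 126.3 and 118.5 CPM with Zizyphi 500 and 136.7, 130.1 and 128.0 CPM with Longan 500, against 153.6, 162.6 and 154.9 CPM in Vehicle. ID1 had 143.7, 143.7 and 133.1 CPM with Zizyphi 500 and 154.7, 158.3 and 154.5 CPM with Longan 500, against 168.1, 171.1 and 163.3 CPM in Vehicle. For all 3 genes both extracts lay below the Vehicle libraries without overlap, as did 11.1% of all genes with Zizyphi 500 and 10% with Longan 500. In log2 units the changes with Zizyphi 500 were −0.61 ± 0.060 for ID2, −0.37 ± 0.056 for ID3 and −0.26 ± 0.083 for ID1, and with Longan 500 −0.36 ± 0.060, −0.25 ± 0.056 and −0.10 ± 0.083.

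The levels followed dose within each extract. ID2 averaged 112.8 ± 6.41, 101.9 ± 0.69 and 76.8 ± 3.71 CPM (SD, n = 3 each) at 20, 100 and 500 µg/mL of Zizyphi, and 111.0 ± 4.53, 103.1 ± 2.86 and 91.1 ± 6.35 CPM at the same doses of Longan. ATOH8 averaged 18.04 ± 0.48, 15.5 ± 1.23 and 10.2 ± 0.75 CPM with Zizyphi, and 17.0 ± 0.62, 14.5 ± 2.53 and 12.8 ± 0.48 CPM with Longan. The larger step for both genes with Zizyphi was the one from 100 to 500 µg/mL, and the 20 µg/mL means were close to Vehicle, at 117.0 ± 3.31 CPM for ID2 and 18.2 ± 1.87 CPM for ATOH8.

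Per 5-fold step of dose, fitted on the 9 libraries of the extract, the Zizyphi slopes in log2 units were −0.44 ± 0.054 for ID4, −0.40 ± 0.042 for ATOH8, −0.27 ± 0.033 for ID2, −0.21 ± 0.024 for ID3 and −0.20 ± 0.023 for ID1. The Longan slopes were −0.19 ± 0.039 for ID4, −0.20 ± 0.041 for ATOH8, −0.14 ± 0.021 for ID2, −0.13 ± 0.016 for ID3 and −0.12 ± 0.021 for ID1. Each of these 5 slopes was larger in size with Zizyphi than with Longan; the difference was not tested, since both slopes were used in the choice.

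**Figure D1:**
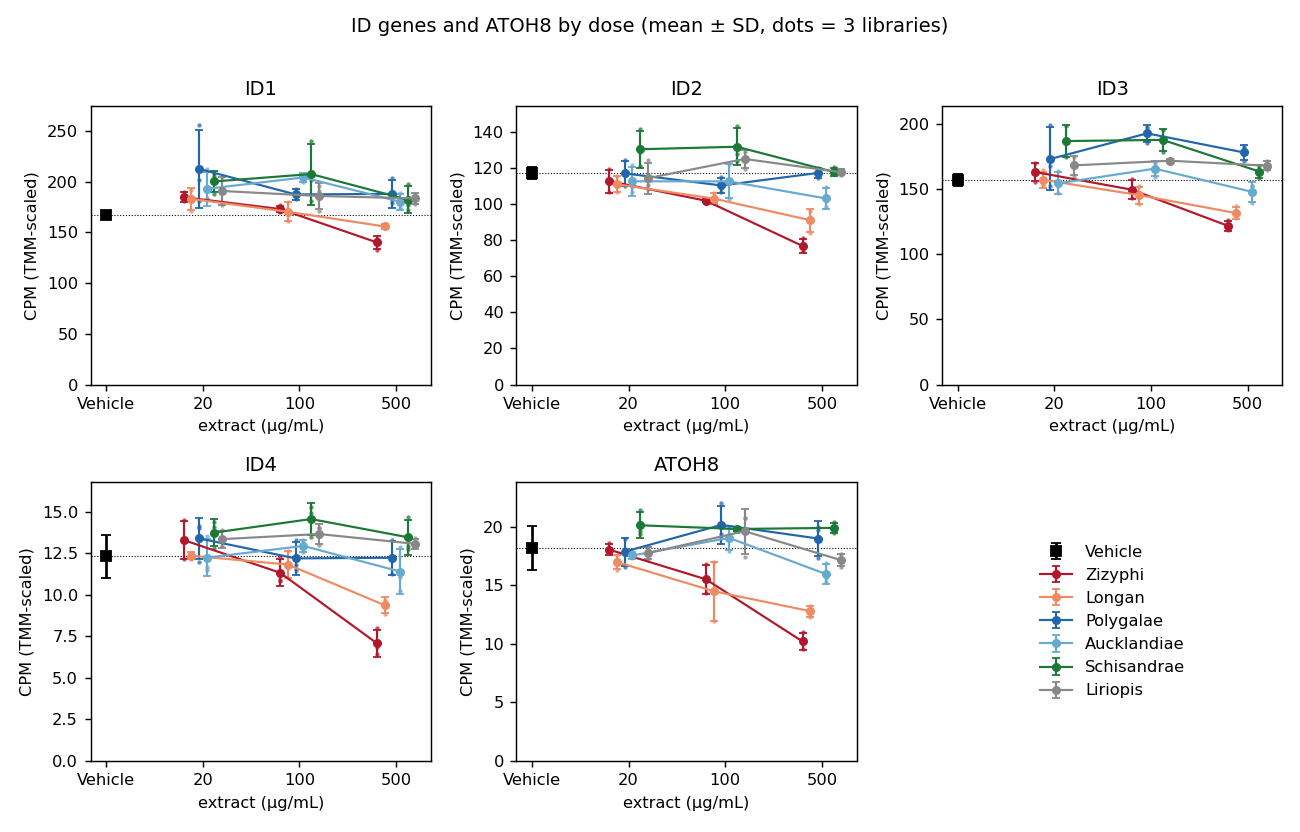
Level of ID1, ID2, ID3, ID4 and ATOH8 (y axis, TMM-scaled CPM) in Vehicle and at 20, 100 and 500 µg/mL of each extract (x axis). Small dots are the 3 libraries, larger markers the mean with its SD, and the dotted line the Vehicle mean; the Zizyphi and Longan lines end lowest at 500 µg/mL in every panel, at 76.8 and 91.1 CPM for ID2.

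The other 5 members were less uniform with these extracts. SMAD6, an inhibitory SMAD, averaged 74.2 ± 4.01 CPM with Zizyphi 500 and 75.6 ± 2.30 CPM with Longan 500, against 83.1 ± 3.27 CPM in Vehicle (log2 −0.16 ± 0.050 and −0.14 ± 0.050). SMAD7, the other inhibitory SMAD, was near Vehicle, with log2 changes of 0.02 ± 0.063 and 0.03 ± 0.064. SMAD9, a receptor-activated SMAD, had 1.26, 1.23 and 1.52 CPM with Zizyphi 500, against 1.496, 2.143 and 1.797 CPM in Vehicle, so the groups overlapped.

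BAMBI was below Vehicle already at the lowest dose. It had 19.5, 20.2 and 19.5 CPM at 20 µg/mL of Zizyphi, 17.6, 19.0 and 18.3 CPM at 100 µg/mL and 17.3, 19.9 and 17.6 CPM at 500 µg/mL, against 21.2, 23.0 and 22.9 CPM in Vehicle. Its Zizyphi slope was −0.06 ± 0.030 per 5-fold step. BMPER lay slightly above Vehicle with both extracts at 500 µg/mL (log2 0.11 ± 0.095 with Zizyphi and 0.16 ± 0.095 with Longan). Over the 10 members the median log2 change was −0.33 with Zizyphi 500 and −0.25 with Longan 500; the median over all genes tested was 0.0024 and 0.0017.

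At 20 µg/mL the means of ID1 and SMAD7 were above Vehicle in all 6 extracts. That of BAMBI was below it in all 6. The 6 extracts share the 3 Vehicle libraries. All of this also held at 100 µg/mL, and for BAMBI at 500 µg/mL, so it was not particular to the low dose. At 500 µg/mL ID1 was still above Vehicle with Polygalae (187.9 CPM), Aucklandiae (180.2 CPM), Schisandrae (182.3 CPM) and Liriopis (183.5 CPM). ID1 averaged from 183.1 ± 10.6 CPM with Longan to 212.6 ± 38.5 CPM with Polygalae at 20 µg/mL, against 167.5 ± 3.95 CPM in Vehicle (SD, n = 3 each). For ID1 every library at 20 µg/mL lay above every Vehicle library in 6 of the 6 extracts, and for SMAD7 in 2 of 6. For BAMBI every library lay below every Vehicle library in 4 of 6. The share of all genes without overlap at this dose is not given here, so these counts are a description only. The Polygalae 20 libraries ranged widely for ID1, at 255.4, 201.6 and 180.9 CPM, and the highest was replicate 1, the library farthest from its group; without it the Polygalae mean was 191.2 CPM (n = 2). With Zizyphi, ID1 was 183.4, 190.2 and 180.5 CPM at 20 µg/mL, 171.8, 170.4 and 176.8 CPM at 100 µg/mL and 143.7, 143.7 and 133.1 CPM at 500 µg/mL. The ID1 values with Zizyphi thus lay above all 3 Vehicle libraries at 20 µg/mL and below them at 500 µg/mL.

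Wortmannin was not used in the choice of the members, and 6 of the 10 passed the test against Vehicle (edgeR quasi-likelihood test, Benjamini-Hochberg adjusted p under 0.05 over all 17368 genes), where 37.4% of all genes did. ID2, ID3, ID4 and ATOH8 fell, and BMPER and SMAD9 rose. By direction, 19.4% of all genes were lower and 18% higher.

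BMPER had the largest change. It had 9.14, 9.53 and 10.6 CPM with Wortmannin, against 5.90, 6.11 and 5.83 CPM in Vehicle, with no overlap. The log2 change was 0.71 ± 0.089 (adjusted p = 1.7e-09), and Wortmannin was the highest of the 20 groups for BMPER. SMAD9 had 2.08, 2.88 and 2.47 CPM with Wortmannin, against 1.496, 2.143 and 1.797 CPM in Vehicle, and these ranges overlapped (log2 0.44 ± 0.171, adjusted p = 0.036).

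ATOH8 had 15.3, 15.8 and 14.0 CPM with Wortmannin, against 16.4, 17.9 and 20.1 CPM in Vehicle (log2 −0.27 ± 0.076, adjusted p = 0.0029). ID4 had 10.3, 10.7 and 10.2 CPM with Wortmannin, against 10.9, 13.3 and 12.7 CPM in Vehicle (−0.25 ± 0.083, adjusted p = 0.015). ID3 had 140.5, 136.8 and 140.1 CPM, against 153.6, 162.6 and 154.9 CPM in Vehicle (−0.17 ± 0.056, adjusted p = 0.010). ID2 had 107.4, 107.9 and 100.5 CPM, against 120.9, 115.3 and 115.0 CPM in Vehicle (−0.15 ± 0.059, adjusted p = 0.035). Every Wortmannin library lay below every Vehicle library for these 4 genes, as was so for 25.6% of all genes, although the ATOH8 and ID4 values of the nearest libraries were close.

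ID1 and SMAD6 missed the threshold. ID1 had 144.9, 143.1 and 152.4 CPM with Wortmannin, against 168.1, 171.1 and 163.3 CPM in Vehicle (−0.19 ± 0.083, adjusted p = 0.066), and the groups did not overlap. SMAD6 averaged 76.7 ± 3.15 CPM with Wortmannin, against 83.1 ± 3.27 CPM in Vehicle (−0.12 ± 0.050, adjusted p = 0.058). SMAD7 (0.12 ± 0.062, adjusted p = 0.11) and BAMBI (0.04 ± 0.067, adjusted p = 0.68) had no change past the threshold.

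**Figure D2:**
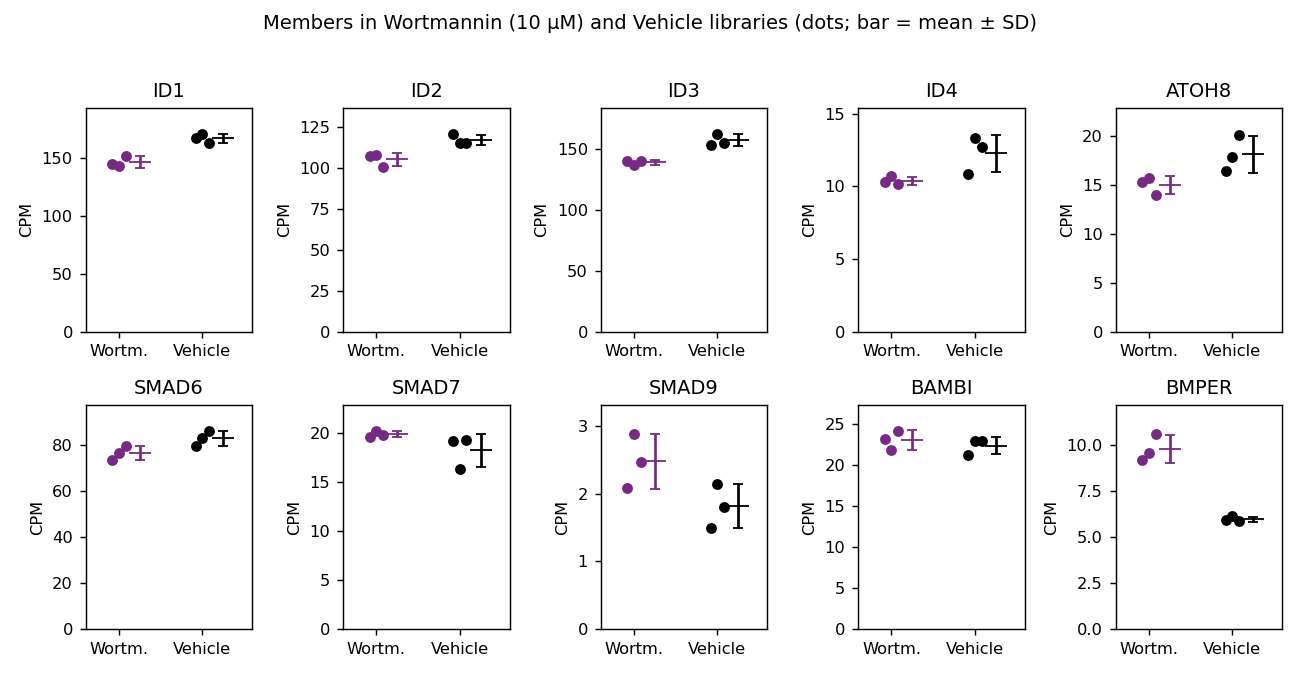
Each member in the 3 Wortmannin (10 µM) and 3 Vehicle libraries (y axis, TMM-scaled CPM, from 0; dots are libraries, bars the mean with its SD). BMPER lies higher in all 3 Wortmannin libraries, 9.14 to 10.6 CPM against 5.83 to 6.11 CPM in Vehicle, and the 4 ID genes and ATOH8 lie lower.

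The smaller Wortmannin calls were close to the threshold, and between 3 and 8 members passed when 1 library was left out. Leaving out a library also widened the standard error, and the change itself was not always smaller. For ID2 it was −0.16 ± 0.066 without Vehicle replicate 2 and −0.12 ± 0.065 without Wortmannin replicate 3. The ID2 call was lost without Vehicle replicate 1 (adjusted p = 0.13), Vehicle replicate 2 (0.053) or Wortmannin replicate 3 (0.16), and the ID3 call without Vehicle replicate 2 (0.061). The ID4 call was lost without Vehicle replicate 2 (0.13), Vehicle replicate 3 (0.059) or Wortmannin replicate 3 (0.052), and the ATOH8 call without Vehicle replicate 3 (0.068). SMAD9 lost its call without Vehicle replicate 1 (0.19), Vehicle replicate 3 (0.084), Wortmannin replicate 2 (0.20) or Wortmannin replicate 3 (0.070), with DESeq2 (0.080) and with no filter on low counts (0.12). Without Polygalae 20 replicate 1, which belongs to neither group compared, ID1 (0.032) and SMAD6 (0.039) passed. SMAD6 also passed without Vehicle replicate 1 (0.036) or Wortmannin replicate 3 (0.037), with RLE scaling (0.0499), with no filter on low counts (0.042) and in a fit of only the 6 libraries compared (0.0062). ID1 passed with no filter (4.6e-05) and in the 6-library fit (1.6e-06), and the BMPER call was kept in every alternative run.

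The other BMP pathway genes are counted by role, beside 18% of all genes higher and 19.4% lower with Wortmannin. Of 10 tested ligand genes 2 rose, a share near that of all genes: BMP8B (log2 0.64 ± 0.072, adjusted p = 6.9e-11) and BMP6 (0.29 ± 0.071, adjusted p = 9.1e-04). BMP8B has a near copy, BMP8A, so its counts depend on how shared reads were split. Of 9 receptor and co-receptor genes 3 rose: the type II receptor gene BMPR2 (0.35 ± 0.046), the type I receptor gene BMPR1B (0.34 ± 0.046) and ACVR2B (0.18 ± 0.066). BMPR2 was at 143.8, 154.2 and 150.5 CPM with Wortmannin, against 118.3, 114.2 and 120.0 CPM in Vehicle, with no overlap.

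Of 10 secreted antagonists and modulators, a list that leaves out BMPER, 4 rose and none fell with Wortmannin; the largest were GREM1 (0.51 ± 0.109), NBL1 (0.24 ± 0.065) and FSTL1 (0.16 ± 0.036). Of 10 SMAD transducers and regulators 1 rose, the ubiquitin ligase gene SMURF2 (0.20 ± 0.047), and 2 fell, TOB1 (−0.21 ± 0.041) and SMURF1 (−0.14 ± 0.045). Of 4 other BMP target genes MSX2 fell (−0.31 ± 0.115, adjusted p = 0.026), and none of 3 E protein genes passed the test. On the TGF-beta side 8 of 11 genes rose, where 18% of all genes did, among them PMEPA1 (0.46 ± 0.037), TGFBI (0.36 ± 0.029) and TGFBR1 (0.31 ± 0.041). Without 1 library ACVR2B lost its call (Vehicle replicate 2, adjusted p = 0.14; Wortmannin replicate 1, 0.12; Wortmannin replicate 3, 0.089), and with no filter on low counts (0.057). The SMURF1 call was lost without Vehicle replicate 2 (0.077) or Wortmannin replicate 2 (0.054). MSX2 lost its call without Vehicle replicate 2 (0.14), Vehicle replicate 3 (0.18), Wortmannin replicate 1 (0.066) or Wortmannin replicate 2 (0.077), and with no filter (0.061). The median log2 change was 0.18 over the ligands, 0.084 over the receptors, 0.12 over the antagonists and 0.13 over the TGF-beta list, against 0.0079 over all genes.

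Markers of cell type and state moved with Wortmannin too. Of the 8 epithelial and A549 markers 3 rose, KRT19 (0.62 ± 0.057), EPCAM (0.53 ± 0.122) and ALDH1A1 (0.16 ± 0.029), and 2 fell, AKR1B10 (−0.23 ± 0.039) and AKR1C1 (−0.13 ± 0.039). CD68, the 1 tested of 4 blood cell markers, rose (0.53 ± 0.129, adjusted p = 9.8e-04), with the list summing to 15.9 to 19.3 CPM with Wortmannin, against 11.5 to 12.3 CPM in Vehicle; PTPRC, CD3E and HBB averaged at most 0.00896 CPM over all libraries. Of 7 tested replication-dependent histone genes 3 rose, with sums of 40.8 to 43.6 CPM, against 34.6 to 37.8 CPM in Vehicle. The endothelial markers summed to 0.296 to 0.397 CPM with Wortmannin, against 0.147 to 0.321 CPM in Vehicle, and none of 3 tested fibroblast markers was called. The part of these markers in the results was not tested.

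Polygalae at 500 µg/mL changed 2 of the 10 members, a share near that of all genes, of which 19.9% passed, 10.4% higher and 9.48% lower. BAMBI had 14.8, 16.2 and 20.6 CPM with Polygalae 500, against 21.2, 23.0 and 22.9 CPM in Vehicle (log2 −0.39 ± 0.073, adjusted p = 3.3e-05). All 3 treated libraries lay below Vehicle, although replicate 3 lay only just below. ID3 had 171.6, 180.6 and 182.2 CPM with Polygalae 500, against 153.6, 162.6 and 154.9 CPM in Vehicle, with no overlap (0.18 ± 0.056, adjusted p = 0.014). Polygalae 500 was therefore above Vehicle for ID3 where Zizyphi 500 was below it.

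The ID3 call was lost without Vehicle replicate 1 (adjusted p = 0.061), Vehicle replicate 3 (0.053), Polygalae 500 replicate 2 (0.055) or Polygalae 500 replicate 3 (0.063); the BAMBI call was kept in every alternative. ID1 (0.16 ± 0.083, adjusted p = 0.17) and BMPER (−0.26 ± 0.101, adjusted p = 0.059) did not pass. BMPER had 4.85, 4.81 and 5.26 CPM with Polygalae 500, against 5.90, 6.11 and 5.83 CPM in Vehicle, without overlap. How many of all genes did not overlap in this comparison is not given. ID2 (0.0024 ± 0.059), ID4 (−0.02 ± 0.084) and ATOH8 (0.06 ± 0.077) were near Vehicle.

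Over the 3 Polygalae doses no member had a slope past the threshold, where 5.03% of all genes did. With edgeR 4 members had an unadjusted p under 0.05: BAMBI (−0.13 ± 0.054 per 5-fold step), BMPER (−0.13 ± 0.055), SMAD6 (0.09 ± 0.030) and SMAD7 (−0.09 ± 0.033). Of all 17368 genes 3319 had such a p. DESeq2 called no member. BAMBI passed without Polygalae 500 replicate 3 (−0.20 ± 0.045, adjusted p = 0.032), the library with the highest BAMBI value of its group. Without Polygalae 20 replicate 1 no member slope passed either, and those of BAMBI (−0.13 ± 0.065), BMPER (−0.13 ± 0.063), SMAD6 (0.05 ± 0.022) and SMAD7 (−0.08 ± 0.036) kept their direction. In a fit of slopes over all 60 libraries SMAD6 (adjusted p = 0.013) and BAMBI (0.0083) passed. BAMBI averaged 20.5 ± 0.22, 17.8 ± 2.05 and 17.2 ± 3.00 CPM at 20, 100 and 500 µg/mL. ID3 had its highest mean of all groups at 100 µg/mL of Polygalae, 192.8 ± 6.47 CPM, so its values did not follow dose.

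Of the pathway lists with Polygalae 500, where 10.4% of all genes were higher and 9.48% lower, no BMP ligand passed the test, and of 9 receptor genes 2 fell, BMPR1B (−0.24 ± 0.050) and BMPR2 (−0.17 ± 0.047). Both of these rose with Wortmannin. Of 10 secreted antagonists FSTL1 fell (−0.13 ± 0.037), and of 10 transducers and regulators SMAD5 rose (0.13 ± 0.043) while SMURF1 (−0.13 ± 0.046) and TOB1 (−0.12 ± 0.041) fell. Of 3 E protein genes, which encode the binding partners of ID proteins, TCF4 (−0.30 ± 0.086) and TCF3 (−0.15 ± 0.050) fell. On the TGF-beta side 7 of 11 fell, beside 9.48% of all genes, and none rose, with PMEPA1 (−0.59 ± 0.038), CCN2 (−0.38 ± 0.060) and TGFB2 (−0.30 ± 0.045) the largest. BMPR2 lost its call without Polygalae 500 replicate 2 (adjusted p = 0.12), TCF4 without Polygalae 500 replicate 3 (0.15) and FSTL1 without Vehicle replicate 2 (0.086) or Polygalae 500 replicate 3 (0.071). SMAD5 lost its call without Vehicle replicate 2 (0.24) or Polygalae 500 replicate 1 (0.29), with no filter on low counts (0.090) and in the 6-library fit (0.070). TCF3 lost it without Vehicle replicate 1 (0.050) or 2 (0.076) or Polygalae 500 replicate 1 (0.14) or 3 (0.084). SMURF1 lost it without Vehicle replicate 2 (0.15) or 3 (0.097) or Polygalae 500 replicate 1 (0.083) or 2 (0.23), and TOB1 without Vehicle replicate 2 (0.094) or 3 (0.079) or Polygalae 500 replicate 1 (0.084) or 3 (0.074).

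PMEPA1, a TGF-beta target, had 166.1, 166.7 and 165.0 CPM with Polygalae 500, against 242.8, 253.3 and 252.4 CPM in Vehicle, with no overlap. Its Polygalae slope also passed (−0.24 ± 0.024 per 5-fold step), as did those of CCN2 (−0.17 ± 0.035) and TGFBI (−0.11 ± 0.026). The TGFBI slope lost its call without Polygalae 500 replicate 1 (adjusted p = 0.13), 2 (0.11) or 3 (0.12), Polygalae 20 replicate 2 (0.081) or Polygalae 100 replicate 3 (0.054), and with the replicate number as a replicate block (0.066). All 3 slopes passed without Polygalae 20 replicate 1. The median log2 change was −0.22 over the TGF-beta list and −0.11 over the receptors, against 0.00072 over all genes.

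The markers moved with Polygalae 500 as well. Of the 8 epithelial and A549 markers 4 fell, KRT8 (−0.26 ± 0.039), KRT18 (−0.33 ± 0.034), CDH1 (−0.19 ± 0.056) and ALDH1A1 (−0.28 ± 0.029), and EPCAM rose (0.35 ± 0.129). The epithelial list summed to 13420 to 13714 CPM with Polygalae 500, against 15817 to 16181 CPM in Vehicle. CD68 rose (0.96 ± 0.129), with blood cell marker sums of 21.4 to 23.9 CPM with Polygalae 500, against 11.5 to 12.3 CPM in Vehicle. COL1A1 and COL3A1 of 3 tested fibroblast markers fell, with sums of 22.3 to 29.6 CPM, against 34.04 to 34.29 CPM in Vehicle, and COL1A2 and DCN, markers of the same list, averaged 0.0143 and 0.00984 CPM over all libraries. Of 7 histone genes 4 fell, with sums of 25.5 to 26.5 CPM, against 34.6 to 37.8 CPM in Vehicle, and the endothelial markers summed to 0.122 to 0.368 CPM, against 0.147 to 0.321 CPM. Over the Polygalae doses 4 epithelial markers, 2 fibroblast markers and 3 histone genes had falling slopes and CD68 a rising one (0.62 ± 0.086 per 5-fold step). The part of these markers in the results was not tested.

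Aucklandiae at 500 µg/mL changed 1 member, BMPER, where 4.93% of all genes passed. BMPER had 4.10, 3.84 and 4.55 CPM with Aucklandiae 500, against 5.90, 6.11 and 5.83 CPM in Vehicle (adjusted p = 4.6e-04), the lowest mean of the 20 groups. At lower doses it had 5.91, 6.78 and 6.39 CPM at 20 µg/mL and 5.94, 6.14 and 5.10 CPM at 100 µg/mL, so the 500 µg/mL libraries lay below all 6 of these. Its slope was −0.30 ± 0.057 per 5-fold step (adjusted p = 0.0052), the 1 member slope past the threshold in Aucklandiae, where 0.967% of all genes passed. The slope call was lost without Aucklandiae 500 replicate 2 (−0.26 ± 0.063, adjusted p = 0.067), the lowest of its group, whereas the call against Vehicle was kept in every alternative.

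ID2 was next, at 98.4, 101.7 and 109.4 CPM with Aucklandiae 500, against 120.9, 115.3 and 115.0 CPM in Vehicle. The groups did not overlap, but the share of all genes without overlap is not given for this comparison. The ID2 change was −0.18 ± 0.059 (adjusted p = 0.059). ID2 passed with DESeq2 (adjusted p = 0.046), with no filter on low counts (0.0011), in a fit of only the 6 libraries compared (0.0015) and without Aucklandiae 500 replicate 3 (0.043). ID1 had 177.5, 174.3 and 188.9 CPM with Aucklandiae 500, above all 3 Vehicle libraries (0.11 ± 0.082, adjusted p = 0.53). Its call was gained only in the fit of those 6 libraries (adjusted p = 0.028).

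With Aucklandiae 500, where 4.93% of all genes passed, 1 of 10 ligands, 1 of 10 antagonists, 1 of 10 transducers and regulators and 4 of 11 TGF-beta genes were called, and no receptor, other BMP target or E protein gene was. The antagonist CRIM1, a transmembrane protein that binds BMPs, fell (−0.19 ± 0.042, and −0.11 ± 0.017 per 5-fold step), with 487.9, 475.5 and 464.6 CPM, against 534.6, 547.9 and 545.4 CPM in Vehicle. SMAD5 rose (0.14 ± 0.043, adjusted p = 0.046). BMP7 rose by 1.78 ± 0.443 (adjusted p = 0.0088) from very few counts, 15, 15 and 14 with Aucklandiae 500, against 2, 8 and 3 in Vehicle. On the TGF-beta side 4 of 11 fell, among them PMEPA1 (−0.19 ± 0.038), TGFB2 (−0.15 ± 0.044) and TGFBI (−0.13 ± 0.029). The BMP7 call was lost without Vehicle replicate 1 (adjusted p = 0.071) or 3 (0.059) and the TGFBI call without Aucklandiae 500 replicate 3 (0.075). SMAD5 lost its call without Vehicle replicate 2 (0.34) or 3 (0.061) or any 1 of the Aucklandiae 500 libraries (0.13, 0.054 and 0.16), with RLE scaling (0.051), with DESeq2 (0.055) and with no filter on low counts (0.094). TGFB2 lost it without any 1 of the Vehicle libraries (0.086, 0.091 and 0.10) or Aucklandiae 500 replicate 2 (0.055) or 3 (0.27). Of the epithelial markers KRT8 (−0.14 ± 0.039), KRT18 (−0.25 ± 0.034) and ALDH1A1 (−0.19 ± 0.029) fell with Aucklandiae 500, the list summing to 14316 to 14637 CPM, against 15817 to 16181 CPM in Vehicle. CD68 fell (−0.54 ± 0.144, adjusted p = 0.017), with blood cell marker sums of 7.21 to 9.42 CPM, against 11.5 to 12.3 CPM in Vehicle, and no fibroblast marker or histone gene was called. Over the Aucklandiae doses 4 epithelial markers had falling slopes. The part of these markers in the results was not tested.

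**Figure D3:**
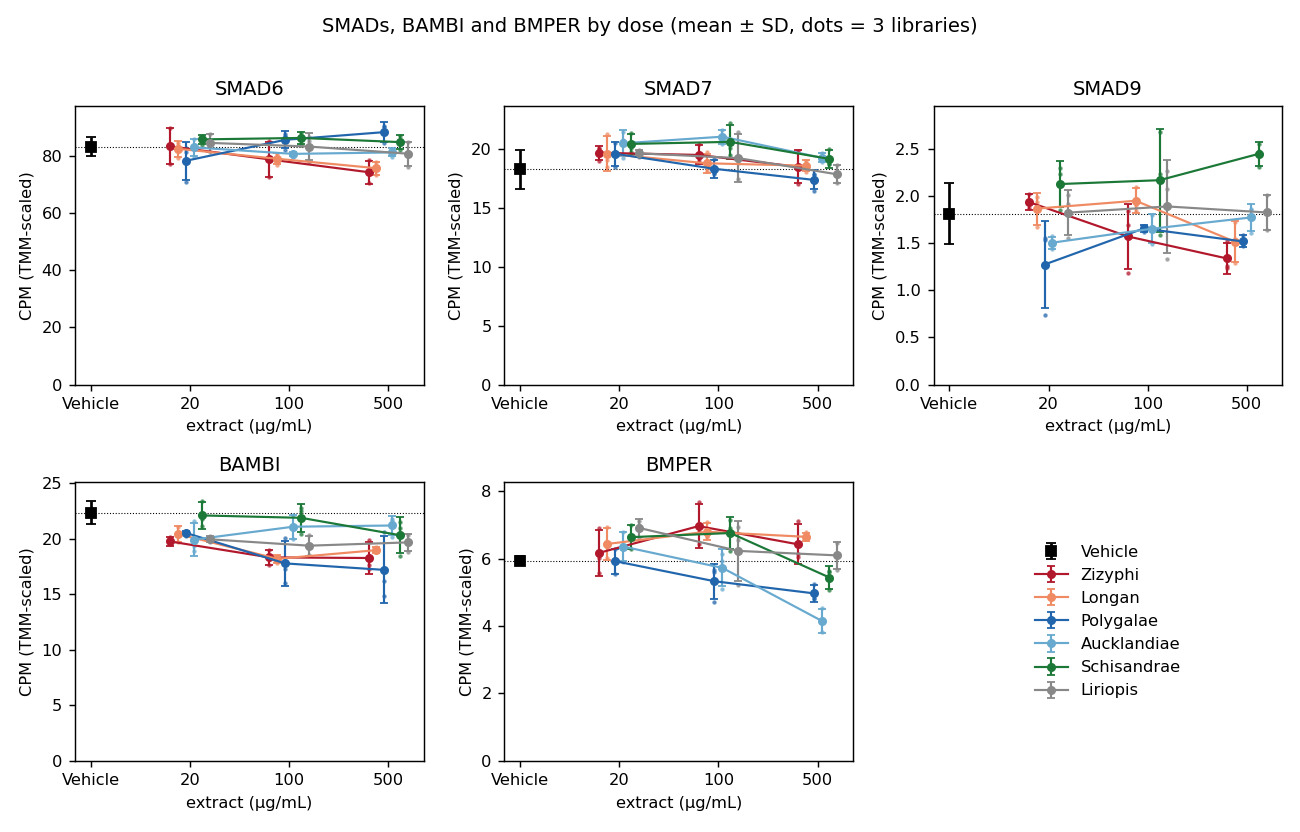
Level of SMAD6, SMAD7, SMAD9, BAMBI and BMPER (y axis, TMM-scaled CPM, from 0) in Vehicle and at 20, 100 and 500 µg/mL of each extract (x axis); small dots are the 3 libraries, larger markers the mean with its SD. BMPER is lowest at 500 µg/mL of Aucklandiae (mean 4.16 CPM) and BAMBI at 500 µg/mL of Polygalae (mean 17.2 CPM), the group in which its libraries spread most.

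Polygalae 500 and Aucklandiae 500 come from the same library set, and 4 of the 10 members differed between them, where 15.2% of all genes did, 8.2% higher and 7.04% lower with Polygalae. ID3 was at 171.6, 180.6 and 182.2 CPM with Polygalae 500, against 139.1, 152.3 and 152.6 CPM with Aucklandiae 500 (log2 0.27 ± 0.056, adjusted p = 3.2e-04). ATOH8 was at 19.7, 17.3 and 19.9 CPM, against 15.6, 15.3 and 16.9 CPM with Aucklandiae 500 (0.25 ± 0.078, adjusted p = 0.020), and ID2 at 117.3, 114.4 and 120.1 CPM, against 98.4, 101.7 and 109.4 CPM (0.19 ± 0.060, adjusted p = 0.026). These 3 genes were higher with Polygalae without overlap, as were 16.5% of all genes. BAMBI was lower with Polygalae 500 (−0.31 ± 0.074, adjusted p = 0.0014), although its replicate 3, at 20.6 CPM, lay above the lowest Aucklandiae 500 library at 20.2 CPM.

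The ID3 difference was kept in every alternative. The ID2 difference was lost without Polygalae 500 replicate 1 (adjusted p = 0.066) or 3 (0.099), or Aucklandiae 500 replicate 1 (0.14) or 2 (0.087), and the ATOH8 difference without the same 4 libraries (0.10, 0.11, 0.070 and 0.10). BAMBI lost its call without Polygalae 500 replicate 1 (0.058) and in the fit of the 6 libraries alone (0.057), in which SMAD6 passed (0.12 ± 0.035, adjusted p = 0.017). The ID1 levels of the 2 groups were close (0.06 ± 0.083, adjusted p = 0.73). Of the pathway lists, 2 of 9 receptor genes, BMPR2 (−0.21 ± 0.047) and BMPR1B (−0.15 ± 0.050) were lower with Polygalae 500, as were 7 of 11 TGF-beta genes, where 7.04% of all genes were lower, while SMAD2 was higher (0.17 ± 0.035). NOG and HEY1 were also lower with Polygalae 500, NOG on only 5, 7 and 1 counts, against 11, 21 and 8 with Aucklandiae 500. BMPR1B lost its call without any 1 of the Polygalae 500 libraries (adjusted p = 0.052, 0.089 and 0.12) or Aucklandiae 500 replicate 1 (0.12) or 2 (0.11), with DESeq2 (0.051) and with no filter on low counts (0.075). NOG lost it without Polygalae 500 replicate 1 (0.058) or 3 (0.20) or Aucklandiae 500 replicate 2 (0.25), with DESeq2 (0.076), with no filter (0.058) and in the 6-library fit (0.064), and HEY1 without Polygalae 500 replicate 3 (0.13) or Aucklandiae 500 replicate 3 (0.10). CD68 was higher with Polygalae 500 (1.499 ± 0.136), and COL1A1 (−0.41 ± 0.065) and COL3A1 (−0.54 ± 0.123) of the fibroblast markers were lower, as were 4 of 7 histone genes. Of the epithelial markers 3 were lower and 1, KRT19 (0.34 ± 0.062), higher with Polygalae 500; the part of these markers was not tested.

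Schisandrae and Liriopis had no member past the threshold with edgeR or DESeq2. For Schisandrae 500 against Vehicle 0 of 10 members were called, where 0.478% of all genes were. An unadjusted p under 0.05 was found for 2 members, SMAD9 (0.43 ± 0.174) and BAMBI (−0.14 ± 0.069), and for 1865 of all 17368 genes. SMAD9 had 2.47, 2.31 and 2.56 CPM with Schisandrae 500, above 1.496, 2.143 and 1.797 CPM in Vehicle without overlap. How many of all genes did not overlap here is not given. For Liriopis 500 against Vehicle 0 of 10 were called, where 0.00576% of all genes were. BAMBI (−0.19 ± 0.070) had an unadjusted p under 0.05, as did 1431 of all 17368 genes. BAMBI was at 18.8, 19.9 and 20.3 CPM with Liriopis 500, against 21.2, 23.0 and 22.9 CPM in Vehicle. Of the pathway lists the 1 call was PMEPA1 with Schisandrae 500 (−0.16 ± 0.037, adjusted p = 0.032), lost without any 1 of the 6 libraries (0.069 to 0.20).

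Between Schisandrae 500 and Liriopis 500, which share a library set, 0 of 10 members were called, where 0.322% of all genes were. ATOH8 (0.22 ± 0.077) and SMAD9 (0.42 ± 0.177) had an unadjusted p under 0.05, as did 1884 of all 17368 genes. DESeq2 called no member. Over dose, 0 of 10 slopes passed with Schisandrae, where 0.0403% of all genes did. Unadjusted p was under 0.05 for ID3 (−0.10 ± 0.029) and BMPER (−0.14 ± 0.053), and for 1166 of all 17368 genes. The Schisandrae ID3 slope passed with no filter on low counts (adjusted p = 0.0073). ID3 averaged 186.8 ± 11.9, 187.8 ± 8.53 and 163.5 ± 4.63 CPM at 20, 100 and 500 µg/mL of Schisandrae, so the difference lay at the highest dose. With Liriopis 0 of 10 slopes passed, where 0.0461% of all genes did, and DESeq2 called none. No member had an unadjusted p under 0.05, where 957 of all 17368 genes did.

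**Figure D4:**
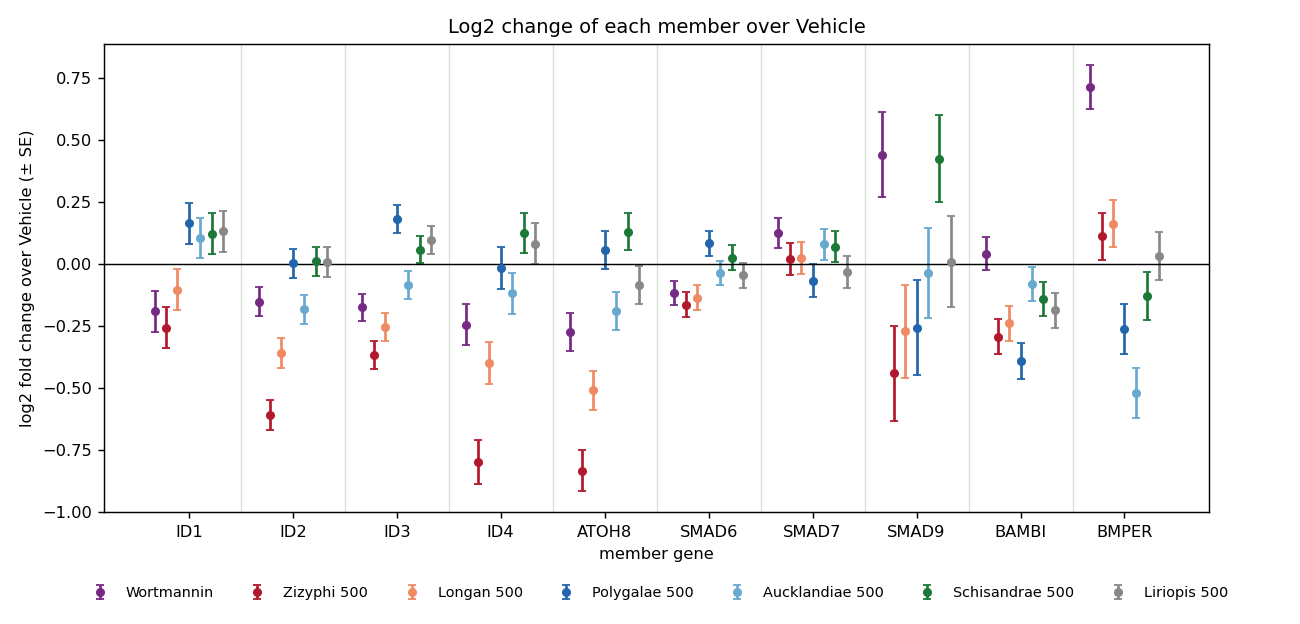
Log2 change over Vehicle of each member (x axis) with Wortmannin and with 500 µg/mL of each extract (points, with the standard error as bars, from the edgeR fit of all 60 libraries). ATOH8, ID4 and ID2 reach −0.83, −0.80 and −0.61 with Zizyphi, and BMPER runs from −0.52 with Aucklandiae to 0.71 with Wortmannin.

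With Zizyphi 500, 1.81% of all genes passed, and of the pathway genes that were not members 1 of 10 ligands, 1 of 10 transducers and regulators and 2 of 11 TGF-beta genes did. BMP6, a ligand gene, was the only one of 10 ligands called; it had 10.2, 11.9 and 12.1 CPM with Zizyphi 500, against 15.7, 14.7 and 15.9 CPM in Vehicle (−0.44 ± 0.077, adjusted p = 3.7e-04). The Zizyphi libraries lay below Vehicle without overlap. BMP6 was at 12.98 ± 0.59 CPM at 20 µg/mL, and its Zizyphi slope, which does not cross library sets, was not called. None of 9 receptor genes, 10 secreted antagonists, 4 other BMP targets or 3 E protein genes was called. RUNX1, which encodes a factor that binds SMADs, fell (−0.31 ± 0.074, adjusted p = 0.014). The RUNX1 call was lost without Vehicle replicate 3 (0.081) or any 1 of the Zizyphi 500 libraries (0.054, 0.052 and 0.069), and the BMP6 call was kept in every alternative. Of the marker lists KRT19 alone was called with Zizyphi 500 (0.24 ± 0.059, adjusted p = 0.015), and no marker with Longan 500.

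On the TGF-beta side 2 of 11 genes rose with Zizyphi 500, among them SMAD3 (0.12 ± 0.031, adjusted p = 0.028), which encodes a receptor-activated SMAD of the TGF-beta branch. The Zizyphi slope of SMAD3 passed as well (0.07 ± 0.013 per 5-fold step), where 0.351% of all genes did. SMAD3 lost its call without any 1 of the 3 Zizyphi 500 libraries (0.13, 0.050 and 0.10) or the 3 Vehicle libraries (0.12, 0.097 and 0.061) and with no filter on low counts (0.15), and its slope call without any 1 of the Zizyphi 500 libraries (0.087, 0.052 and 0.11). With Longan 500, where 0.104% of all genes were called, no gene of the 7 pathway lists passed against Vehicle, and none in the Longan slope, where 0.0345% did.

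The members also differed in how they moved together. Over the 18 extract groups, the mean log2 level of each member was taken relative to the mean of its extract. The 5 helix-loop-helix genes gave Pearson r from 0.793 (ID1 with ATOH8) to 0.951 (ID2 with ID4), and the median over all 45 pairs of members was 0.55. These groups include the Zizyphi and Longan doses that the choice used. Without them, over 12 groups, r was 0.915 for ID1 with ID4 but 0.144 for ID1 with ATOH8 and 0.36 for ID3 with ID4, and the median was 0.349. Without Polygalae 20 replicate 1 the values of the 5 genes over 18 groups ran from 0.727 (ID3 with ID4) to 0.933 (ID1 with ID2), with a median over all pairs of 0.578. Over 12 groups without that library r was 0.682 for ID1 with ID4, 0.384 for ID1 with ATOH8 and −0.0629 for ID3 with ID4, so these values rested in part on 1 library.

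The spread between replicates, which the choice did not use, was also compared. Over the 60 libraries, the log2 deviation from the group mean gave r over 0.5 for 3 of 45 pairs: 0.609 for ID1 with ID3, 0.572 for ID2 with ID3 and 0.561 for ID1 with ID2. Without Polygalae 20 replicate 1, over 59 libraries, these were 0.431, 0.558 and 0.536, and without the 3 Polygalae 20 libraries 0.518, 0.548 and 0.579. ATOH8 with SMAD6 gave 0.406 over 60 libraries, 0.528 over 59 and 0.527 over 57, and ID4 with SMAD6 gave 0.470, 0.402 and 0.402. ID1 with ID4 gave 0.150 over 60 libraries, 0.377 over 59 and 0.388 over 57. ID4, which followed ID2 across doses, gave r = 0.0014 with it over 60 libraries and 0.07 over 59. The median over all 45 pairs was 0.0694 over 60 libraries and 0.0984 over 59. The points share library depth, and SMAD9 in particular has few counts; these correlations are descriptions of 60 libraries.

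**Figure D5:**
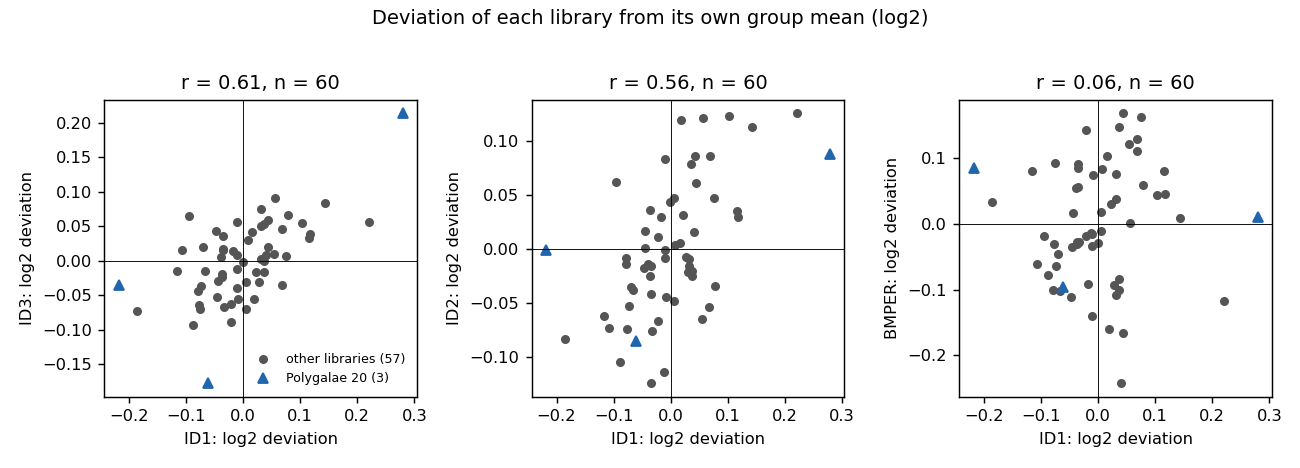
Log2 deviation of each of the 60 libraries from its own group mean, for ID1 (x axis) against ID3, ID2 and BMPER (y axes). ID1 and ID3 (r = 0.61) and ID1 and ID2 (r = 0.56) deviate together, ID1 and BMPER do not (r = 0.064), and the Polygalae 20 libraries, drawn as triangles, include the highest and the lowest ID1 deviation.

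Outside the members, the genes whose pattern over the 18 extract groups was most like that of ID1 were ATG16L1 (r = 0.877), S100P (0.875), DDX21 (0.858), EIF4H (0.837) and HK1 (0.834), out of 10957 genes with a mean of at least 5 CPM. Without Zizyphi and Longan, over 12 groups, S100P had 0.860, ATG16L1 0.742 and HK1 0.582. Without Polygalae 20 replicate 1 as well these were 0.789, 0.848 and 0.296; over 18 groups without it they were 0.855, 0.909 and 0.660. S100P, which encodes a calcium-binding protein, was also nearest to ID1 in size, with a Zizyphi slope of −0.20 per 5-fold step, whereas that of ATG16L1, an autophagy gene, was −0.05. For ID3 the closest were ATG16L1 (0.860), TMEM41B (0.816), TFAP2C (0.806), SAMD11 (0.784) and METTL4 (0.783). Without Zizyphi and Longan, over 12 groups, these were 0.716, 0.621, 0.490, 0.604 and 0.667. Over 18 groups without Polygalae 20 replicate 1 these 5 genes ranged from 0.728 for METTL4 to 0.854 for TMEM41B. Over 12 groups without that library they ranged from 0.528 for METTL4 to 0.765 for TMEM41B.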

How the data were processed

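Total RNA of A549 cells was sequenced as strand-specific 100-base paired-end libraries, per the labels' protocols. Per the submitters' processing notes the tools were FastQC 0.11.9, Trim Galore 0.6.5, STAR 2.7.3a and RSEM 1.3.3 with GRCh38; no source used here states which annotation was counted or whether strand was used, so reads from a gene and its antisense partner cannot be told apart. The authors deposited expected counts per Ensembl gene (10.7% of values not whole), which were rounded. Symbols came from a gene name table (56558 genes) and GENCODE 29 (497 genes).

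The 17368 genes kept by edgeR's filterByExpr over the 20 groups were fitted with edgeR 4.0.16 (R 4.3.3; TMM scaling, quasi-likelihood test, robust, two-sided) over all 60 libraries, and dose slopes over the 9 libraries of an extract with doses coded 0, 1 and 2. Each p was Benjamini-Hochberg adjusted over all genes, and adjusted p under 0.05 was called. CPM are counts scaled to the TMM-adjusted library size; RPKM divide them by exonic length. Correlations used log2 CPM with a prior count of 2. All 10 members were named, and per pathway list at most 3 called genes with the largest change; 1 gene of the TGF-beta list is not reported here. DESeq2 1.42.0 and other settings were tried as alternatives. The code was tested on simulated data. The members and gene lists were chosen with earlier results of these data known. Promoter sequences are from RefSeq (GRCh38.p14); all 10 members had one.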

Additional observations from a re-analysis of the deposited data

How the results depend on the processing

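Of 1920 member values under the alternatives, 1868 kept their side of the threshold or, with Zizyphi and Longan, moved by no more than the replicate spread. Another 29 lost and 21 gained a call, and 2 with Zizyphi or Longan moved by more than the spread. No value with a call in either fit changed direction. Uncalled values could change direction, as the ID2 slope with Polygalae did in 7 of 14 alternatives. Of 640 pathway gene values 544 kept their call, 96 lost it and none reversed. The alternatives without Polygalae 20 replicate 1, correlations included, were chosen after seeing the data. RLE scaling in place of TMM shifted no median by over 0.1.

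Counts of changed genes that moved by over 1.5 times were as follows. In a fit of only the 6 libraries compared, 926 genes changed with Zizyphi 500 (315 in the fit of all libraries), 480 with Longan 500 (18), 1721 with Aucklandiae 500 (857), 217 with Schisandrae 500 (83), 0 with Liriopis 500 (1) and 9 between Schisandrae 500 and Liriopis 500 (56). With no filter on low counts the numbers were 263 with Longan 500, 186 with Schisandrae 500, 185 with Liriopis 500 and 216 between Schisandrae 500 and Liriopis 500. For slopes without that filter they were 160 with Zizyphi (61), 42 with Longan (6), 327 with Aucklandiae (168), 72 with Schisandrae (7) and 131 with Liriopis (8). Slopes from all 60 libraries gave 33 with Zizyphi, 0 with Longan, 2990 with Polygalae (873), 17 with Schisandrae and 0 with Liriopis. DESeq2 gave 50 with Longan 500, 5 with Liriopis 500, and slopes of 19 with Schisandrae and 13 with Liriopis. Among the members, Aucklandiae 500 changed 2 with no filter, 3 in the 6-library fit and 2 with DESeq2 (1), the Polygalae slope called 2 over all 60 libraries (0) and the Schisandrae slope 1 with no filter (0). With no filter or in the 6-library fit, ID1 and SMAD6 passed with Wortmannin and ID1 with Polygalae 500. The cause of these shifts was not tested.

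Replicate numbers did not pair the samples: over 81 pairs of same-numbered libraries the correlation of deviations ran from −0.0783 to 0.0867. With the replicate number as a replicate block, 34 genes changed with Longan 500 and 3 with Liriopis 500, and slopes passed for 96 genes with Zizyphi, 13 with Longan, 14 with Schisandrae and 13 with Liriopis; the member counts were as without it, and of the pathway genes TGFBI lost its Polygalae slope call (adjusted p = 0.066).

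Leaving out 1 library gave ranges of changed genes of 5613 to 6935 with Wortmannin, 121 to 534 with Zizyphi 500, 3 to 67 with Longan 500, 2713 to 3912 with Polygalae 500, 421 to 1312 with Aucklandiae 500, 18 to 160 with Schisandrae 500 and 0 to 34 with Liriopis 500. Between extracts they were 2120 to 2996 for Polygalae 500 against Aucklandiae 500 and 7 to 206 for Schisandrae 500 against Liriopis 500. Slopes ranged from 22 to 72 with Zizyphi, 1 to 9 with Longan, 496 to 1444 with Polygalae, 76 to 190 with Aucklandiae, 0 to 21 with Schisandrae and 2 to 21 with Liriopis. Members called ranged from 3 to 8 with Wortmannin, 1 to 2 with Polygalae 500, 1 to 2 with Aucklandiae 500, 1 to 4 between Polygalae 500 and Aucklandiae 500, and 0 to 1 for the Polygalae and the Aucklandiae slopes; the other member counts stayed at 0. Among the members depth limits SMAD9 most, at 16 to 78 counts per library.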
